A study of Mus musculus with 8 samples.

Results

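The antioxidant and glutathione enzymes are a set of 39 genes given by name: the oxidant sensor Keap1, the transcription factor Nfe2l2 (also called Nrf2) and its classical targets, the enzymes that make, recycle and use glutathione, the thioredoxins and peroxiredoxins, and the superoxide dismutases with catalase. Of the 39 genes, 36 were read by at least 1 probe set that named no other gene, and all 36 passed the filter on low signals; 11662 of the 18193 named genes passed it. Each gene was represented by its brightest such probe set over the 8 arrays, and the 36 genes had 74 such probe sets in all. Prdx1 was read only by probe sets that name several genes, and Prdx5 and Prdx6 were not named in the annotation used, so these 3 peroxiredoxins were not analysed here.

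The tissue was subcutaneous fat of male mice described as diabetic, gavaged on 5 days a week for 10 weeks. The labels give an age of 8 weeks without saying at which point of the study it was reached. Placebo mice 6, 8, 10 and 14 were given water, and mice 13, 11, 9 and 5 were given niacin-bound chromium (NBC), a chromium nicotinate complex, in water at a dose of 10 mg per kg. Both groups were diabetic, and no mice without diabetes were compared; neither the strain nor the model of diabetes is given in the sources used here. Each mouse gave 1 Affymetrix whole-genome array of RNA from the whole tissue, so fewer cells of a type and less RNA per cell cannot be told apart in these values. Signals below are linear MAS5 signals, and every difference is NBC minus placebo on the log2(signal + 26) scale with its moderated standard error (SE) from limma, where n is 4 mice per group. Signals by mouse are always listed in the order 6, 8, 10, 14 for placebo and 13, 11, 9, 5 for NBC. The pseudocount makes such differences understate the change of dim transcripts.

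Nfe2l2 is held in the cytoplasm by Keap1, which directs its degradation; oxidants and electrophiles modify Keap1, and Nfe2l2 then enters the nucleus and binds antioxidant response elements with a small Maf partner. Its targets include the subunits of the enzyme that starts glutathione synthesis (Gclc, Gclm), heme oxygenase 1 (Hmox1), the quinone reductase Nqo1, sulfiredoxin (Srxn1) and thioredoxin reductase 1 (Txnrd1). Superoxide dismutases turn superoxide into hydrogen peroxide, which catalase, the glutathione peroxidases and the peroxiredoxins then reduce, while glutathione transferases join glutathione to electrophiles such as the aldehydes of lipid peroxidation. In fat, both adipocytes and resident macrophages carry these enzymes.

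The promoters of 4 members are shown because Gclm, Srxn1 and Txnrd1 had their highest signal in the same NBC mouse and hold a match in this stretch, and because Txnip had the widest difference of the thioredoxin genes on its second probe set. Each line gives the 150 bases before the RefSeq transcript start (build GRCm38.p6, plus strand, 5′ to 3′). Capitals mark the antioxidant response element core TGACNNNGC or its reverse complement in Gclm and Txnrd1, the related motif TGACTCA on the opposite strand (TGAGTCA as printed) in Srxn1, and in Txnip a loose form of the carbohydrate response element, CACGNG and CNNGNG with 5 bases between them.
Gclm, chr3:122245407-122245556: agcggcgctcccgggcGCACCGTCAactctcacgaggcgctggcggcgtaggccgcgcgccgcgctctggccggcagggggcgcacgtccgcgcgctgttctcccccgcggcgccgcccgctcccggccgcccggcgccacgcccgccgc
Srxn1, chr2:152105374-152105523: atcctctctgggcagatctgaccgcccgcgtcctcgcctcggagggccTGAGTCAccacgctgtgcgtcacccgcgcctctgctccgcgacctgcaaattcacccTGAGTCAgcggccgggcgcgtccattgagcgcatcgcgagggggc
Txnrd1, chr10:82859056-82859205: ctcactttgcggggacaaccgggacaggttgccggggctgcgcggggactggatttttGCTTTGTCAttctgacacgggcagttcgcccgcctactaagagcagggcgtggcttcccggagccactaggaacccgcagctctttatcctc
Txnip, chr3:96557807-96557956: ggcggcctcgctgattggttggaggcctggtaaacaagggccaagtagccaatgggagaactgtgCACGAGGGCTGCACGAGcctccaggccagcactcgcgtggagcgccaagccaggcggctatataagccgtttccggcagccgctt
Windows from 250 bases before to 50 bases after a start were given for 33 of the 39 genes, and the motifs were searched on both strands. TGACNNNGC was found in windows of 8 members (Gsta3, Nfe2l2, Srxn1, Gclm, Prdx1, Mgst1, Txnrd1 and Sod1), 4 of them among the 7 with a window in the Nfe2l2 group, against 14.0% of all 27025 genes; genes can have several windows, and 8 of the 42 windows of the members held it, against 12.4% of all 32851 windows. TGACTCA was found in Srxn1, 45 and 102 bases upstream, and in Prdx1 and Gstp1, against 5.2% of windows. It can overlap the longer core, as it did in Prdx1. The TGACNNNGC match of Srxn1 lies 28 bases after the start, outside the stretch shown. The loose carbohydrate response element was found in Txnip, 85 bases upstream, and in Gstk1, against 1.24% of windows, and its strict form, a pair of CACGTG with the same spacing, was found in 0 windows. A match of letters is a description and not a binding site.

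The tissue carried the markers of white fat. The adipocyte genes Adipoq, Fabp4 and Lep had signals of 83886 to 108996, 113707 to 149546 and 76536 to 95189.6, and the summed signal of 10 white adipocyte markers was 590089 to 723754 in placebo and 585482 to 677605 in NBC mice. Of the 10, 9 lay lower in NBC mice (51.5% of all genes), with a median log2 difference of -0.097 and no unadjusted limma p under 0.0957. Only Lipe did not overlap, at 36449 to 42740 in placebo and 33528 to 35969 in NBC mice. Beside these, 14 skeletal muscle markers summed to 6411 to 25410 in placebo mice and to 157926, 172705 and 162185 in NBC mice 13, 11 and 5, but to 18907 in NBC mouse 9. The 3' to 5' signal ratio of the Gapdh control, which rises where RNA is broken down, was 0.924 to 1.04 in placebo mice and 1.11, 1.28, 0.844 and 1.47 in NBC mice 13, 11, 9 and 5. The summed signal of 12 macrophage markers was 372410 in NBC mouse 13 and 185068 to 281923 in the other 7 mice. The summed signal of 9 fibroblast and progenitor markers did not overlap between the groups, at 194273 to 225396 in placebo and 233354 to 251562 in NBC mice. Among the brown and beige adipocyte markers, Cidea was at 675 to 875 in NBC and 1188 to 2099 in placebo mice. Ucp1 was at 796 to 2078 in NBC and 1408 to 4061 in placebo mice, with overlapping groups. The ratios of the group means were 0.486 and 0.377, with unadjusted limma p of 0.000367 and 0.00725 and adjusted p of 0.653 and 0.730. The rest of this list was mixed. Ppargc1a had a log2 difference of -0.35, and Dio2, which was below the filter, had 0.73. Of the 8 markers that passed the filter, 3 lay higher and 5 lower. The summed signal of the list overlapped between the groups. Values without NBC mouse 13 or NBC mouse 9 are given beside the main results they bear on.

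The comparison of NBC with placebo mice asked whether the antioxidant enzymes differed after the supplement. None of the 36 members passed an adjusted p of 0.05 in limma with Benjamini-Hochberg adjustment (smallest adjusted p = 0.730, Mgst3), and 0 of all 11662 genes did (0.0%). Before adjustment, 2 members lay lower at p under 0.05, the glutathione transferase Mgst3 and the extracellular superoxide dismutase Sod3, against 2.71% of all genes, and 0 lay higher, against 2.73%. Mgst3 was also the only member whose groups did not overlap in that direction (2.23% of all genes), and 0 members lay higher without overlap (1.7% of all genes). Without NBC mouse 13 the members without overlap were 0 higher and 1 lower, beside 3.26% and 3.58% of all genes, and without NBC mouse 9 they were 3 and 4, beside 4.9% and 5.86%. The 36 members were divided evenly, 18 above and 18 below 0, with a median log2 difference of 0.0023, beside a median of -0.0064 over all genes. Their median standard deviation within a group was 0.197 on the log2 scale, beside 0.222 over all genes.

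**Figure D1:**
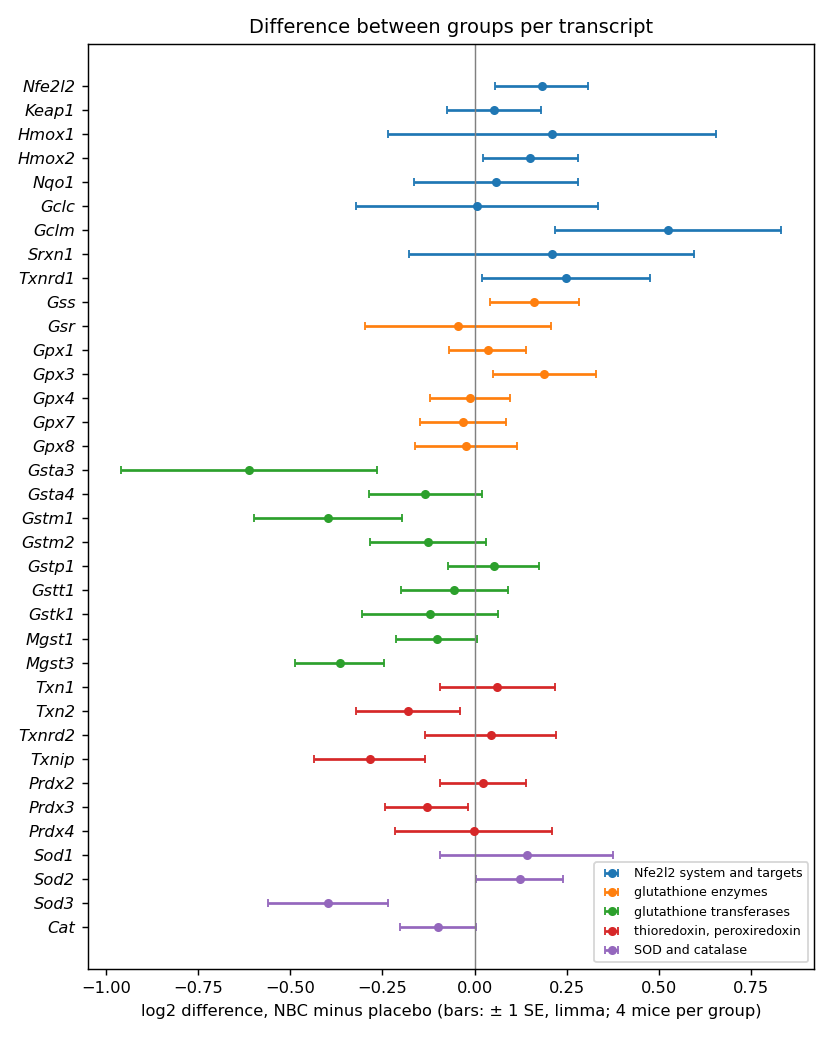
Log2 difference, NBC minus placebo, on the log2(signal + 26) scale for the 36 measured members, grouped by role; circles are the difference over all 8 mice, and bars are ± 1 SE from limma (n = 4 in each group). All 9 genes of the Nfe2l2 group lie above 0, while 8 of 9 glutathione transferases lie below 0. Over all genes that passed the filter, 51.5% lay below 0.

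The 9 genes of the Nfe2l2 group all had a higher mean in NBC than in placebo mice, with log2 differences of 0.0066 to 0.53 and a median of 0.18, and 0 of the 9 reached an unadjusted p of 0.05. NBC mouse 13 stood apart in these genes. It had the highest signal of the 8 mice in all 9 genes, beside 16.7% of all genes, and in 13 of the 17 probe sets of these genes that passed the filter. Without it, 4 of the 9 genes lay higher and 5 lower, with a median of -0.019.

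Heme oxygenase 1, which breaks heme down to biliverdin, carbon monoxide and iron, showed this most. Hmox1 had signals of 2390.4, 2924, 2319 and 2920.4 in placebo animals 6, 8, 10 and 14, against 8315, 2214, 3066 and 1498 in NBC animals 13, 11, 9 and 5. Mouse 13 lay at 3.36 times the mean of the other 7, which ranged from 1498 to 3066; of the other NBC mice, mouse 9 lay above the placebo range and mice 11 and 5 below it. The group means were 2639 ± 329 and 3773 ± 3095 (SD, n = 4 per group), and the log2 difference was 0.21 (SE 0.44) and became -0.27 without mouse 13. Heme oxygenase 2, the constitutive form, was at 6634, 6654, 6673 and 7838 under placebo and 9175, 6959, 7387 and 7464 under NBC, with mouse 13 the highest, placebo mouse 14 next and a log2 difference of 0.15 (SE 0.13), or 0.068 without mouse 13.

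Sulfiredoxin, which restores over-oxidised peroxiredoxins and whose promoter stretch above holds TGACTCA in 2 places, was at 2717, 2974, 2595 and 3407 under placebo and 8380.2, 2618, 2928 and 1989 under NBC. Again mouse 13 was the highest, at 3.05 times the mean of the other 7, and NBC mouse 5 was the lowest of the 8. The log2 difference of Srxn1 was 0.21 (SE 0.39), and -0.23 without mouse 13. Srxn1 has 3 dimmer probe sets that passed the filter, of which 1 was highest in a placebo mouse and the other 2 in mouse 13.

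The modifier subunit of glutamate-cysteine ligase, Gclm, which makes the enzyme more efficient, was at 2399, 2893, 3033 and 2224 in placebo animals 6, 8, 10 and 14, against 7246, 2735, 2568 and 3998 in NBC animals 13, 11, 9 and 5. It had the widest difference of the group, 0.53 (SE 0.31) with an unadjusted limma p of 0.120, and gave 0.21 without mouse 13. A second probe set gave 0.13 (SE 0.19), read 2209 in mouse 13 against 1152 to 1383 in the rest, and turned to -0.073 without mouse 13. The catalytic subunit Gclc was at 4066, 2539, 2416 and 1936 under placebo and 4637, 1607, 2395 and 2752 under NBC, so that on this probe set placebo mouse 6 came close to mouse 13, and its log2 difference was 0.0066 (SE 0.33). On the other Gclc probe set mouse 13 read 2678 against 1193 to 2206 in the rest, with placebo mouse 6 at 1279, and the log2 difference was -0.0014 (SE 0.26).

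Thioredoxin reductase 1, which reduces cytosolic thioredoxin with NADPH, was at 5597, 6103, 6443 and 7388 under placebo and 11630, 5466, 8170.1 and 6228 under NBC. Its log2 difference of 0.25 (SE 0.23) became 0.040 when mouse 13 was left out. A dimmer probe set that passed the filter gave -0.43 (SE 0.37), the opposite sign. Nqo1, which reduces quinones by a pair of electrons, was at 677, 603, 539.5 and 881 under placebo and 1009, 719, 616 and 512 under NBC, with overlapping groups and a log2 difference of 0.058 (SE 0.22).

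The regulator Nfe2l2 itself was at 5252, 4917, 5084 and 5437 under placebo and 7155, 5462, 5411 and 5602 under NBC. NBC mouse 9 lay just below the highest placebo mouse, and the other 3 NBC mice lay above it, mouse 13 the furthest. The log2 difference was 0.18 (SE 0.13), with an unadjusted limma p of 0.181 and an adjusted p of 0.827. Without mouse 13 the log2 difference was 0.087, with an unadjusted limma p of 0.451. The two-sided exact permutation p over all 8 mice was 0.0571, where the smallest p that 4 against 4 mice allow is 0.0286. Keap1 was at 2654, 3016, 2479 and 2624 under placebo and 3240, 2901, 2542 and 2524 under NBC, with overlapping groups and a log2 difference of 0.052 (SE 0.13); its dimmer probe set gave -0.51 (SE 0.29).

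**Figure D2:**
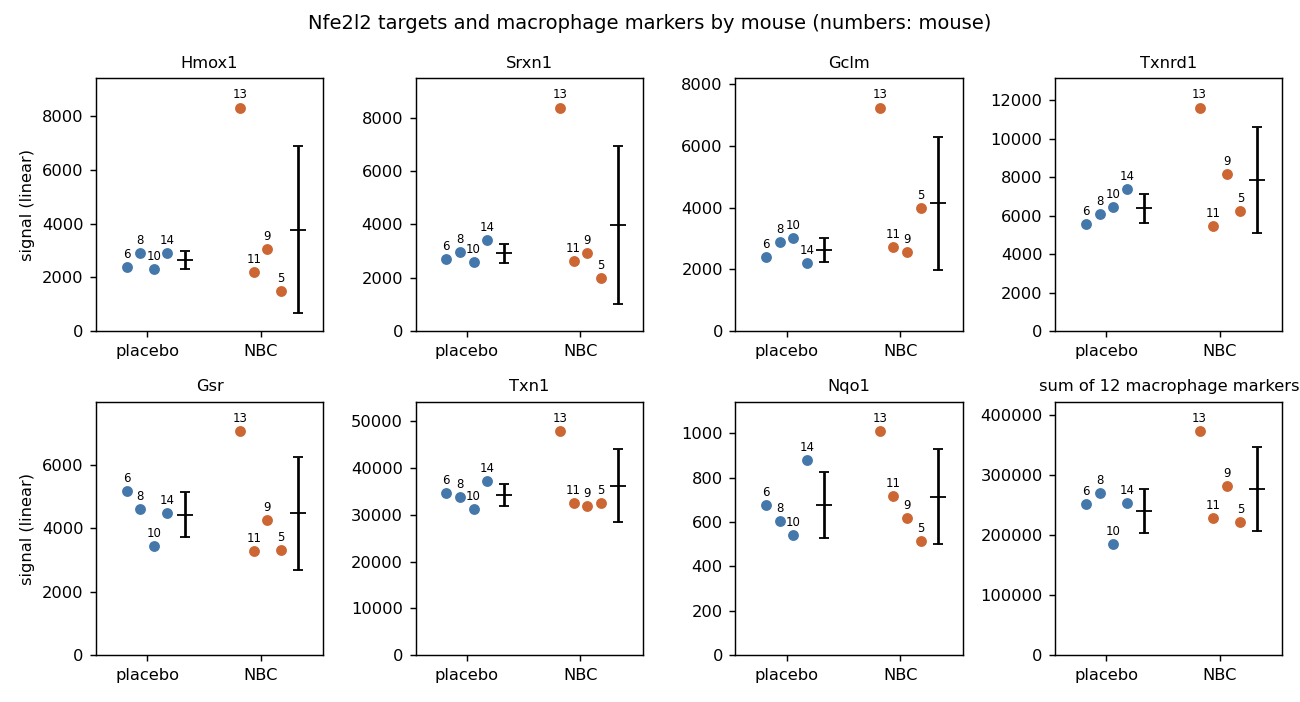
Linear signal by mouse for 7 genes, Hmox1, Srxn1, Gclm, Txnrd1, Gsr, Txn1 and Nqo1, and for the sum of 12 macrophage markers, placebo in blue and NBC in orange, with the mouse number at each point; black bars are the group mean ± SD (n = 4). NBC mouse 13 is the highest point in all 8 panels, while the other 3 NBC mice lie among the placebo mice or near them.

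The jump in mouse 13 was measured beyond the named targets. It was the highest mouse by at least 1.5 times in Hmox1, Srxn1 and Gclm, 3 of 36 members beside 1.51% of all genes, and placebo mouse 10 was so in Gsta3. In the 105 measured genes of the 8 wider pathway lists it was the highest by that margin in 7: Ptgr1, Anpep, Akr1b8, Ncf4, Cbr3, Maoa and Cyba, named here after their values were seen. Ptgr1, a reductase of leukotriene and alkenal double bonds, was at 3292, 3824, 2612 and 3695 under placebo and 13197, 3449, 3769.8 and 2914 under NBC. Akr1b8, an aldo-keto reductase, was at 6067, 5809, 4826 and 6098 under placebo and 13194, 5187, 5484 and 5027 under NBC. Cybb and Ncf4, subunits of the phagocyte NADPH oxidase, lay at 2.33 and 2.10 times the mean of the other mice in mouse 13. Mouse 13 was the highest of the 8 in 11 of the 12 macrophage markers; Adgre1, Csf1r, Cd68 and Itgam lay at 1.79, 1.42, 2.26 and 2.47 times the mean of the other 7, and the sum of the list at 1.54 times. Its Gapdh ratio was 1.11, and none of the 12 markers was at 0 in any mouse. By group, all 12 markers had a log2 difference above 0. Csf1r alone did not overlap, at 30512 to 38211 in placebo and 39585 to 52622 in NBC mice (limma, unadjusted p = 0.0355, adjusted p = 0.778). Without mouse 13, Csf1r was at 0.24, again without overlap, while Adgre1, Cd68 and Itgam were at -0.024, -0.11 and -0.20. The summed lymphocyte signal was 1282 in mouse 13 and 1865 in NBC mouse 11, 6909 and 9583 in NBC mice 9 and 5, and 4455 to 6684 in placebo mice. The part of these cells in the signals of Hmox1, Srxn1 and Gclm was not tested.

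The genes of glutathione synthesis, recycling and peroxidases had small differences. Of these 7 genes, 3 lay higher and 4 lower, with a median log2 difference of -0.012 and no unadjusted limma p under 0.210. Glutathione synthetase, Gss, which adds glycine in the last step of synthesis, was at 1484, 1529, 1907 and 1708 under placebo and 1842, 2008, 1727 and 1827 under NBC, and had a log2 difference of 0.16 (SE 0.12). Glutathione reductase, Gsr, which returns oxidised glutathione to its reduced form, was highest in mouse 13 at 7066 against 3280.3 to 5185 in the rest, and had a log2 difference of -0.045 (SE 0.25).

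Among the peroxidases, Gpx1, Gpx4 and Gpx7 had spreads over the 8 mice of 5.01%, 5.66% and 7.21% of the mean, and Gpx3 and Gpx8 of 13.2% and 11.6%, beside a median of 13.9% over the members and 15.8% over all genes. Gpx1, the cytosolic glutathione peroxidase, was at 54091, 53774, 52529.7 and 48924 under placebo and 57805, 50306, 53602 and 52992 under NBC. Its log2 difference was 0.036 (SE 0.10), and that of Gpx4, which reduces lipid hydroperoxides in membranes, was -0.012 (SE 0.11). Gpx3, the secreted form, was at 8071, 9003, 6743 and 8596 under placebo and 9241, 9258, 7874 and 10571 under NBC, with a log2 difference of 0.19 (SE 0.14) and overlapping groups. Gpx7 and Gpx8, peroxidases of the endoplasmic reticulum, had log2 differences of -0.031 (SE 0.12) and -0.023 (SE 0.14).

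The glutathione transferases lay lower in NBC mice in 8 of 9 genes, beside 51.5% of all genes lower, with a median log2 difference of -0.13. Without NBC mouse 13, 6 of these 9 genes lay lower, beside 5957 of all 11662 genes. Without NBC mouse 9, 7 lay lower, beside 5825 of all genes. The median of the transferases was -0.10 in both fits. Of their 14 probe sets that passed the filter, 13 lay lower, but several read the same gene, among them 4 for Gstm1. Of the 9 genes, Mgst3 alone reached an unadjusted limma p of 0.05. Mgst3, a microsomal transferase that also has peroxidase activity, was at 38936, 40168, 34646 and 34589.7 in placebo animals 6, 8, 10 and 14, against 31949.7, 29351, 25107 and 28808 in NBC animals 13, 11, 9 and 5. The lowest placebo mouse was above the highest NBC mouse. The means were 37085 ± 2893 and 28804 ± 2820.5 (SD, n = 4 per group), with a ratio of 0.777 and a log2 difference of -0.37 (SE 0.12); the unadjusted limma p was 0.0142, the adjusted p 0.730, and the two-sided exact permutation p 0.0286, the smallest that 4 against 4 mice allow. Its dimmer probe set gave -0.41 (SE 0.21), with groups that overlapped. With each of the 8 mice left out in turn, the unadjusted limma p of Mgst3 stayed under 0.05, between 0.0109 and 0.0455. Without NBC mouse 9, whose muscle markers were low, its log2 difference was -0.30. As given above, the fibroblast and progenitor sum was higher in NBC mice, and the means of Cidea and Ucp1 were lower. Most white adipocyte markers lay slightly lower as well, while the brown and beige list as a whole was mixed. The part of any of these cells in the Mgst3 values was not tested.

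Gstm1, a cytosolic transferase of the mu class, was at 40791, 35644, 25195 and 35421 under placebo and 31641, 28202, 25439 and 19005 under NBC, and its log2 difference was -0.40 (SE 0.20) with an unadjusted limma p of 0.0789. Its other 3 probe sets gave -0.47, -0.48 and -0.31. The mu-class genes are related in sequence, and the representative is of a design that can bind several of them, so the share of Gstm1 in this signal is uncertain. The probe sets at -0.47 and -0.31 are not marked as of that design. Gstm2 had -0.13 (SE 0.16).

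Gsta3, an alpha-class transferase and one of the members with TGACNNNGC in its window, had the widest difference of the 36 representatives, -0.61 (SE 0.35), and the widest spread of the transferases. It was at 3387, 2691, 6735 and 4201 under placebo and 3929, 2829, 2878 and 1455 under NBC, with placebo mouse 10 the highest, NBC mouse 5 the lowest and the other 6 mice overlapping. Leaving out placebo mouse 10 or NBC mouse 5 brought the difference to -0.36 or -0.33, and the second probe set gave -0.11 (SE 0.23). Gsta4, which acts on the lipid aldehyde 4-hydroxynonenal, had -0.13 (SE 0.15), Gstt1 of the theta class -0.054 (SE 0.15), the mitochondrial and peroxisomal Gstk1 -0.12 (SE 0.18) and microsomal Mgst1 -0.10 (SE 0.11). Gstp1, the pi-class transferase, lay on the other side at 0.052 (SE 0.12).

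**Figure D3:**
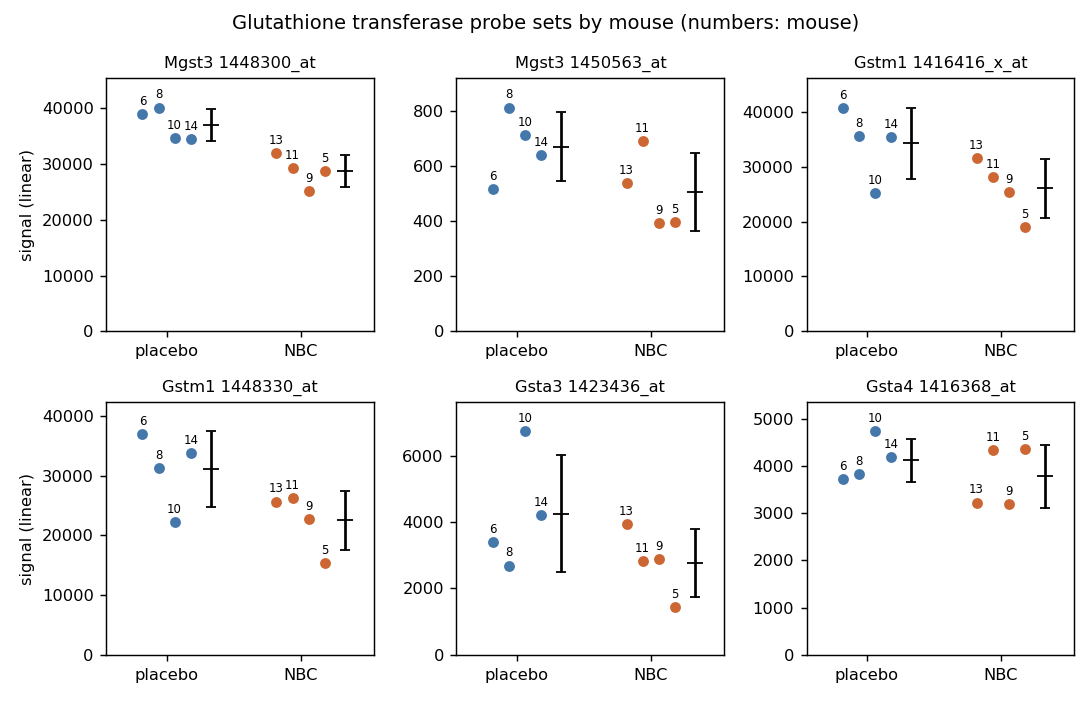
Linear signal by mouse for glutathione transferases, placebo in blue and NBC in orange, with the mouse number at each point; black bars are the group mean ± SD (n = 4). In the first Mgst3 panel the 4 placebo mice, at 34589.7 to 40168, lie above all 4 NBC mice; in the other panels the groups overlap.

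In a list of other glutathione peroxidases and transferases that are not among the 39, 13 of 15 measured genes lay lower, with a median of -0.16, beside 51.5% of all genes lower. Without NBC mouse 13, and likewise without NBC mouse 9, 11 of the 15 lay lower, with medians of -0.14 and -0.18. Gstz1, which isomerises maleylacetoacetate in tyrosine breakdown, was at 26935, 27988, 30744 and 25368 under placebo and 17725, 21711, 27729 and 19240.4 under NBC, a log2 difference of -0.38 (SE 0.16) with an unadjusted limma p of 0.0383; NBC mouse 9 lay within the placebo range and the other 3 NBC mice below it, and the p was above 0.05 with any 1 of 6 mice left out (all but placebo mouse 14 and NBC mouse 9). Gstm5 and Ptges, a membrane-bound prostaglandin E synthase of the same superfamily as Mgst1, had -0.20 (SE 0.12) and -0.27 (SE 0.16).

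Of the 7 measured thioredoxin and peroxiredoxin genes, 3 lay higher and 4 lower, with a median log2 difference of -0.0020. The widest difference was in Txnip, which binds reduced thioredoxin, limits glucose uptake and is induced by glucose. On its brighter probe set it was at 45204, 44748, 35359 and 38645 in placebo animals 6, 8, 10 and 14, against 35775, 28324, 40372 and 30657 in NBC animals 13, 11, 9 and 5, with a log2 difference of -0.28 (SE 0.15) and an unadjusted limma p of 0.0908. The dimmer probe set was at 13925, 12486, 8079 and 11479 under placebo and 7595, 2435, 14503 and 3261 under NBC: NBC mice 13, 11 and 5 lay below all placebo mice and NBC mouse 9 above all of them, for a log2 difference of -1.05 (SE 0.50). Without NBC mouse 9 the brighter probe set gave -0.37 with an unadjusted p of 0.0333 and an adjusted p of 0.413 in limma. The dimmer probe set then gave -1.52 with an unadjusted limma p of 0.00388 and an adjusted p of 0.265. NBC mouse 9 was also the mouse with little muscle signal and the lowest Gapdh ratio, and the part of either in the Txnip values was not tested.

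Cytosolic thioredoxin, Txn1, the hydrogen donor of ribonucleotide reductase and the peroxiredoxins, was at 34763, 33735, 31325 and 37192 under placebo and 47909, 32624, 31907 and 32541 under NBC. Mouse 13 was again the high value, 1.43 times the mean of the other 7, and the log2 difference was 0.062 (SE 0.16). Its dim second probe set gave -0.98 (SE 0.46). Mitochondrial thioredoxin, Txn2, lay slightly lower on all 3 of its probe sets, with -0.18 (SE 0.14) on the brightest. Txnrd2, its reductase, gave 0.044 (SE 0.18) on the representative, while its other 3 probe sets gave -0.38, 0.37 and -0.56, so that no direction can be given for it. The peroxiredoxins Prdx2 of the cytosol, Prdx3 of mitochondria and Prdx4 of the endoplasmic reticulum had 0.024 (SE 0.12), -0.13 (SE 0.11) and -0.0020 (SE 0.21).

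Of the superoxide dismutases and catalase, 2 genes lay higher and 2 lower. Sod3, the extracellular dismutase bound to matrix, was at 15785, 18941, 21142 and 17401 in placebo animals 6, 8, 10 and 14, against 11061, 13535, 17414 and 13983 in NBC animals 13, 11, 9 and 5. All NBC mice except mouse 9 lay below the lowest placebo mouse. The means were 18317 ± 2282 and 13998 ± 2615 (SD, n = 4 per group), with a ratio of 0.764 and a log2 difference of -0.40 (SE 0.16), with an unadjusted limma p of 0.0366, an adjusted p of 0.778 and a two-sided exact permutation p of 0.0857. Leaving out mouse 9 gave -0.51 with an unadjusted limma p of 0.00957 and an adjusted p of 0.297, and leaving out mouse 13 gave -0.29 with an unadjusted p of 0.0961. The limma p of Sod3 was above 0.05 with any 1 of 6 mice left out, the exceptions being placebo mouse 6 and NBC mouse 9. On the dimmer probe set Sod3 was at 3683, 6188, 8251 and 6016 under placebo and 3538, 3709, 7402 and 2723 under NBC, with a log2 difference of -0.52 (SE 0.33). Mouse 9 is the NBC mouse whose muscle markers summed to 18907. The fibroblast and progenitor sum was higher in NBC mice, and the means of Cidea, Ucp1 and most white adipocyte markers were lower. The brown and beige list as a whole was mixed. The part of muscle, of fibroblasts and of white or beige adipocytes in the Sod3 values was not tested.

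Sod1, the copper and zinc enzyme of the cytosol, was at 22536, 27692, 34754 and 29554 under placebo and 29153, 37080.3, 20622 and 42639 under NBC. NBC mice 5 and 11, which had the highest Gapdh ratios, had the highest Sod1 signals, and NBC mouse 9, with the lowest ratio, had the lowest. The order differed among the placebo mice, where mouse 6 had the highest ratio, 1.04, and the lowest Sod1 signal. The part of RNA quality in these values was not tested. The log2 difference of Sod1 was 0.14 (SE 0.23), and 0.34 without NBC mouse 9. Its dimmer probe sets that passed the filter gave 0.42 (SE 0.31), 0.23 (SE 0.17) and 0.10 (SE 0.18), with overlapping groups. Sod2, the manganese enzyme of mitochondria, gave 0.12 (SE 0.12) on its brightest probe set and -0.038, -0.074 and -0.34 on the other 3. Catalase, the peroxisomal enzyme, was at 40399.6, 37730.2, 39036 and 36329 under placebo and 35887, 35409.6, 38117 and 33948 under NBC, a spread over the 8 mice of 5.66% of the mean. Its log2 difference was -0.099 (SE 0.10), and its second probe set gave 0.13 (SE 0.13), so that its direction is not settled.

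**Figure D4:**
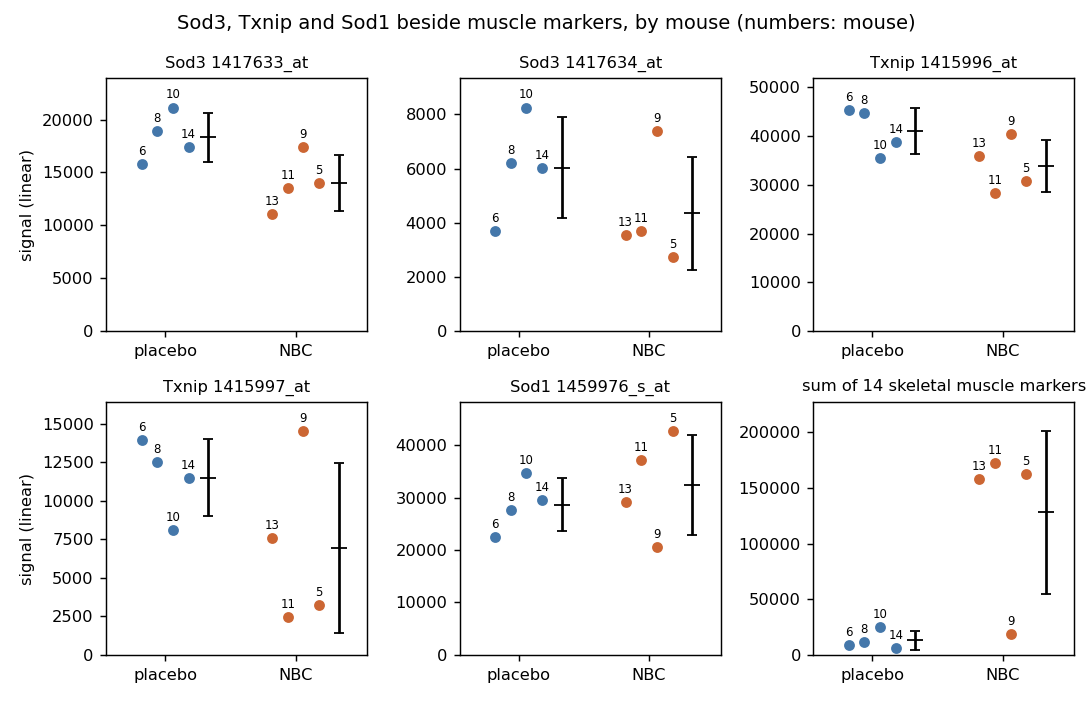
Linear signal by mouse for both probe sets of Sod3 and of Txnip, for Sod1 and for the sum of 14 skeletal muscle markers, placebo in blue and NBC in orange, with the mouse number at each point; black bars are the group mean ± SD (n = 4). NBC mouse 9 lies above all placebo mice in the second Txnip panel and stands near the placebo mice for the muscle sum, where the other 3 NBC mice lie at 157926 to 172705.

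**Figure D5:**
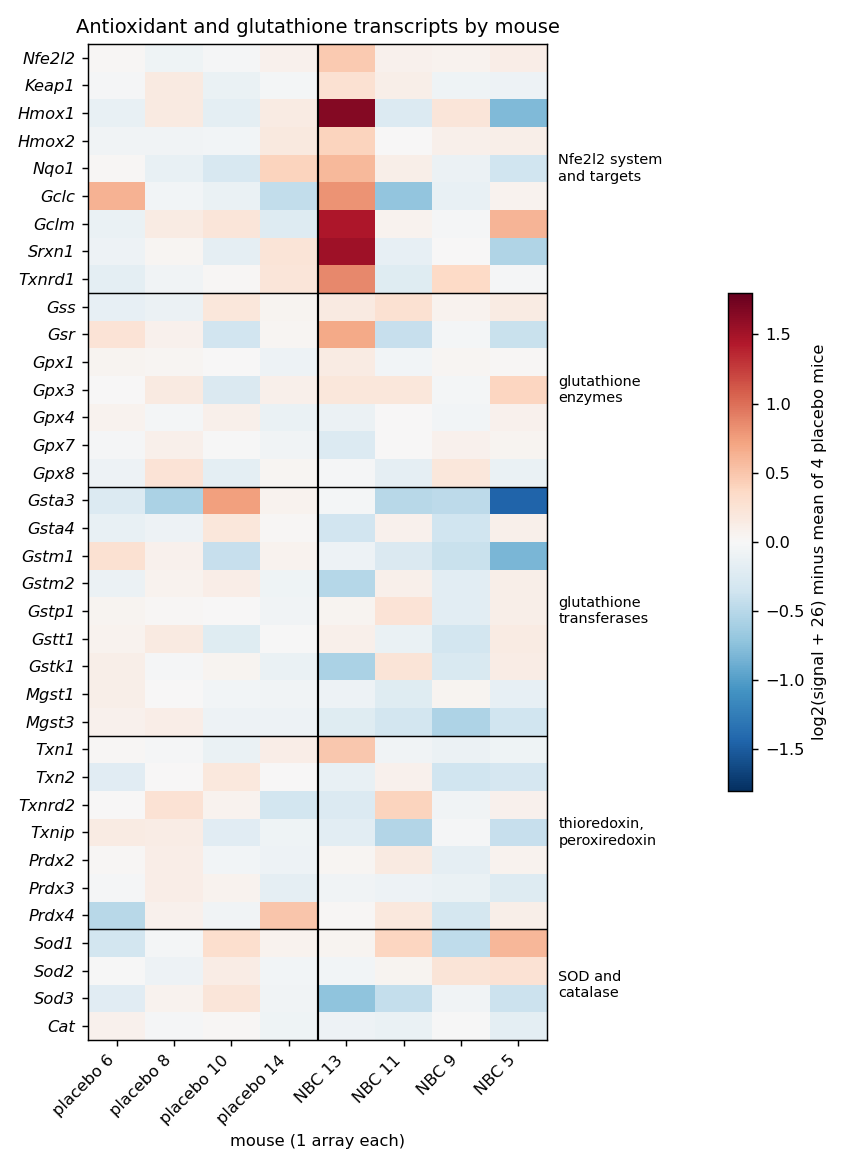
Heat map of the 36 measured members by mouse; colour is log2(signal + 26) minus the mean of the 4 placebo mice. The column of NBC mouse 13 is the darkest for Hmox1, Srxn1 and Gclm, and the row of Gsta3 is lowest in NBC mouse 5.

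The wider pathway was given by 8 lists of 123 genes, of which 113 were named on the array and 105 passed the filter. Of these 105, 48 lay higher and 57 lower with a median of -0.0034, 0 passed the adjusted threshold in limma, and 1 lay higher and 2 lower at an unadjusted p of 0.05 (2.73% and 2.71% of all genes). In 3 genes in each direction the groups did not overlap (1.7% of all genes higher and 2.23% lower). The gene that lay higher was Bach1, a heme-sensitive repressor that competes with Nfe2l2 at the same elements and holds Hmox1 down. Bach1 was at 4491, 4497, 3069.6 and 4428 under placebo and 6999.6, 4850.2, 5666 and 5599 under NBC, with all NBC mice above all placebo mice and a log2 difference of 0.49 (SE 0.17) (limma, unadjusted p = 0.0182, adjusted p = 0.738). The genes that lay lower were Gstz1, given above, and Btrc, a ubiquitin ligase subunit that takes part in Keap1-independent turnover of Nfe2l2, with -0.36 (SE 0.13) (limma, unadjusted p = 0.0175, adjusted p = 0.733). The mean over the Btrc probe sets had the opposite sign, 0.095, and the mean over those of Bach1 gave 0.36 with an unadjusted limma p of 0.191. Nfe2l1, a relative of Nfe2l2, had -0.23 (SE 0.12).

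Among the 11 measured genes of NADPH supply, which both glutathione reductase and the thioredoxin reductases draw on, 7 lay higher and 4 lower. Mitochondrial isocitrate dehydrogenase, Idh2, was at 8979.7, 9917, 10088 and 9811 under placebo and 7869, 8326, 8832 and 8591 under NBC, with no overlap between groups and a log2 difference of -0.21 (SE 0.10) (limma, unadjusted p = 0.0793). NAD kinase, Nadk, which makes NADP, had no overlap either at -0.18 (SE 0.11), and the transhydrogenase Nnt had 0.24 (SE 0.14). Of the 9 measured genes of glutathione breakdown and transport, 6 lay higher; Ggt5, a gamma-glutamyltransferase, and Ggct, gamma-glutamylcyclotransferase, had no overlap at 0.27 (SE 0.12) and 0.25 (SE 0.11), and Cndp2, a cysteinylglycine peptidase, had 0.27 (SE 0.15), or 0.17 without mouse 13. The mean over the Ggt5 probe sets was -0.053.

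The 16 measured genes of the list of other Nfe2l2-linked genes were divided evenly, 8 higher and 8 lower; the 3 of smallest p were Blvra, biliverdin reductase, at -0.26 (SE 0.12), Ptgr1 at 0.51 (SE 0.43), or 0.017 without NBC mouse 13, and Osgin1 at 0.25 (SE 0.23). Of 13 glutaredoxins and other thioredoxin-fold genes, 7 lay higher, with Txnl1 at 0.25 (SE 0.11), Arrdc3, an arrestin-like relative of Txnip, at -0.51 (SE 0.26), or -0.31 without mouse 13, and Glrx3 at 0.39 (SE 0.23). Arrdc3 is not itself a thioredoxin-fold protein and was listed for its kinship to Txnip. Of 19 methionine sulfoxide reductases, sestrins and selenoproteins, 7 lay higher, with Selenok at -0.41 (SE 0.18), Selenom at 0.30 (SE 0.16) and Msra at -0.24 (SE 0.13). Among 11 sources of reactive oxygen species, 7 lay higher, with Cybb at 0.60 (SE 0.42), Maob at -0.18 (SE 0.13) and Ncf4 at 0.34 (SE 0.28). Mouse 13 was the highest of the 8 in 6 of the 11, and without it Cybb, Maob and Ncf4 were at 0.31, -0.091 and 0.084. Each of these 12 genes had an unadjusted limma p above 0.05.

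Leaving out NBC mouse 9, the NBC mouse with little muscle signal, raised the number of members with an unadjusted limma p under 0.05 from 2 to 4: Sod3, Mgst3 and Txnip lay lower (4.61% of all genes) and Gclm lay higher with a limma p of 0.0490 (3.76% of all genes). None of the 36 passed the adjusted threshold then, while 14 of all genes did. Leaving out NBC mouse 13 kept the number of such members at 2. In that limma fit Gstm1 had an unadjusted p of 0.0431 and Mgst3 one of 0.0109, both lower (2.76% of all genes), and 0 lay higher (2.92% of all genes). Of the 36 members, 15 kept the sign of their difference in all 17 alternatives, and 21 changed sign in at least 1.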

How the data were processed

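The authors deposited linear signal intensities, 1 for each probe set on each of 8 arrays, computed with MAS5 per the submitters' processing notes. Neither its version nor a scan batch is given in the sources used here, and no batch was fitted. After trimming 2% from either end, every array had a mean of 1500.01, and no further scaling was applied. Such scaling makes each signal relative to the other signals of its array, with the brightest 2% left out of the mean.

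Gene names came from the platform annotation supplied for the series (34945 with 1 gene, 932 with several, 9160 with none, 64 controls left out). Those with a mean log2(signal + 26) at or above the median were kept (22519, a signal of 275), and the brightest probe set naming only a gene stood for it. NBC and placebo mice, grouped by sample title, were compared with limma 3.58.1 in R 4.3.3 (lmFit, eBayes, no covariate), and p-values were adjusted by Benjamini-Hochberg over all 22519. Two-sided exact permutation tests over all 70 splits were run for single members, after their values were seen. Promoters were taken from RefSeq (GRCm38.p6).

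Named were all members, the 3 genes of smallest p in each pathway list and the first 4 markers of the macrophage and brown or beige adipocyte lists. For white adipocytes, Adipoq, Fabp4 and Lep were named, and Lipe was added for its lack of overlap. The muscle, fibroblast and lymphocyte lists are given as sums only. The members and lists were chosen with earlier results of these data known, so they are no independent support. The count of genes in which 1 mouse was highest by 1.5 times was added after the values were seen. The labels describe separate mice, and their number limits precision. Of 10 cell type lists, the sums of the white adipocyte, muscle, macrophage, lymphocyte and fibroblast lists are given in the Results. The other lists gave summed signals in placebo and NBC mice of 9879 to 16726 and 9831 to 14202 (brown or beige adipocyte), 9112 to 17857 and 6861 to 17183 (erythroid), 35544 to 45555 and 29665 to 48163 (endothelium), 17940 to 36385 and 13608 to 31833 (neutrophil), and 2141 to 3022 and 2264 to 3045 (epithelium).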

Additional observations from a re-analysis of the deposited data

Results flagged for a closer look

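In 120 groups of 4 mice (the 36 members and the 24 named pathway genes, each in both groups), 9 had a highest or lowest mouse whose gap to the nearest of the others, divided by the range of the group, both on the log2(signal + 26) scale, was above Dixon's critical value for 4 values; chance gives about 5% of groups, or 6 here. In 4 of the 9 the mouse was NBC mouse 13 as the highest of the NBC mice: Nfe2l2, with a gap of 0.876 of the log2 range, Txn1 with 0.945, Ptgr1 with 0.830 and Ncf4 with 0.843. Nfe2l2 was 7155 in that mouse against 5411 to 5602 in the other 3 NBC mice, and Txn1 was 47909 against 31907 to 32624. Hmox1, Srxn1 and Gclm, also highest in that mouse, were not among the 9.

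Placebo mouse 10 stood apart in 4 groups, as the lowest placebo mouse in Bach1 (gap 0.959), Selenok (0.830) and Ncf4 (0.903) and as the highest in Ggct (0.831). Bach1 was 4491, 4497, 3069.6 and 4428 under placebo and 6999.6, 4850.2, 5666 and 5599 under NBC, so the placebo mice other than mouse 10 lay within 4428 to 4497. Placebo mouse 14 was the highest placebo mouse in Hmox2, with a gap of 0.965. The macrophage markers summed to 185068 in placebo mouse 10, the lowest of the 8 mice, and to 372410 in NBC mouse 13, the highest; their part in these gaps was not tested.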

How the results depend on the processing

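No paired analysis was possible because no mouse number occurs in both groups. Under 17 alternatives (a pseudocount of 1 or 100, no filter, a filter at the 75th percentile, quantile normalization, median centring, an intensity trend with a robust prior, array weights, the mean over probe sets, and each of the 8 mice left out) 0 members passed the adjusted threshold in limma. The smallest adjusted p of any member, read on its representative or as the mean over its probe sets, was 0.297 (Sod3 without NBC mouse 9). Of the 36 members 15 kept their sign throughout. Mgst3 stayed lower, between -0.42 and -0.30.

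The number of members lower at an unadjusted limma p of 0.05, 2 in the fit as reported, was 1 without the filter, 4 with the trend and robust prior, 4 with array weights and 1 with the mean over probe sets. Leaving out 1 mouse at a time gave 1 to 3, with 1 without placebo mouse 8, placebo mouse 14, NBC mouse 11 or NBC mouse 5 and 3 without NBC mouse 9, and 0 to 1 higher. Of all genes, 2.71% lay lower at that p in the fit as reported, 4.61% without NBC mouse 9 and 2.76% without NBC mouse 13. Members without overlap were 0 to 3 higher and 1 to 4 lower with 1 mouse left out, with 3 and 4 without NBC mouse 9 (4.9% and 5.86% of all genes then), and 1 lay higher after quantile normalization. Shares of all genes are not given for the other settings, so those counts cannot be told from a change over all genes. The median log2 difference ranged, with 1 mouse left out, from -0.013 to 0.067 for glutathione synthesis and peroxidases, from -0.21 to -0.10 for the transferases and from -0.14 to 0.079 for the thioredoxin group, which was -0.13 with the mean over probe sets.

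Signs turned as follows, all for differences past no adjusted threshold, and the cause was not tested. After quantile normalization Gpx1 was -0.0044 and Prdx2 -0.00186; after median centring Gpx4 was 0.00243 and Prdx4 0.013. With array weights Gclc was -0.090, Gpx4 0.015 and Prdx4 0.012. With the mean over probe sets Keap1 was -0.23, Gpx4 0.051, Txn1 -0.46, Txnrd2 -0.13, Prdx4 0.012, Sod2 -0.082, Cat 0.017, Btrc 0.095 and Ggt5 -0.053. With 1 mouse left out, the range was -0.26 to 0.24 for Gclc, -0.27 to 0.55 for Hmox1, -0.23 to 0.46 for Srxn1, -0.12 to 0.20 for Nqo1 and -0.019 to 0.11 for Keap1, each lowest without NBC mouse 13. It was -0.29 to 0.079 for Gsr, -0.00023 to 0.067 for Gpx1, -0.053 to 0.017 for Gpx4, -0.065 to 0.042 for Gpx7 and -0.10 to 0.057 for Gpx8. Among the transferases it was -0.24 to 0.030 for Gstk1, -0.20 to 0.0019 for Gstm2, -0.013 to 0.13 for Gstp1 and -0.13 to 0.039 for Gstt1. For the others it was -0.023 to 0.087 for Prdx2, -0.17 to 0.16 for Prdx4, -0.0077 to 0.34 for Sod1, -0.079 to 0.12 for Txn1 and -0.075 to 0.14 for Txnrd2.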

Other observations

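The genes in which NBC mouse 13 stood furthest above the next mouse, over all 11662 genes, included markers of macrophages and mast cells beside 4 genes of the antioxidant lists. In order of that ratio the first 20 held Hmox1, 2.71 times the next mouse and at rank 12, and Srxn1, 2.46 times and at rank 17, with Ptgr1 at rank 5 and 3.45 times and Anpep at rank 19 and 2.21 times. Marco, a scavenger receptor of macrophages, was 4514 there against 45.9 to 644 in the other 7 mice; Clec4d, a C-type lectin of myeloid cells, was 4.36 times the next mouse and Mmp12, macrophage elastase, was 3.83 times. The mast cell proteases Mcpt2, Tpsab1, Cpa3 and Tpsb2 were 3.37, 3.31, 2.77 and 2.32 times the next mouse, and Fcer1a, the alpha chain of the IgE receptor of mast cells, 2.67 times. Olr1, the receptor for oxidised low-density lipoprotein, was 3.04 times the next mouse. These genes were chosen by their ratio after the values were seen, so the ratios describe 1 mouse and carry no test.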
